A study of Mus musculus with 2 samples.

Results

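The RNA interference and microRNA machinery is described here through 10 genes that handle double-stranded RNA and small RNAs, chosen by name: Drosha, Dgcr8, Xpo5, Dicer1, Tarbp2, Prkra, Ago1, Ago2, Ago3 and Ago4. All 10 are among the 12836 genes of the deposited table. RNA came from mouse embryos of the ICR strain at the morula stage, the ball of compacted cells that precedes the blastocyst. Embryos of the first group received double-stranded RNA matching Nat10 (dsNat10), the gene of an RNA acetyltransferase, and those of the control group received double-stranded RNA matching GFP (dsGFP), which mice do not carry. Both libraries thus come from embryos given double-stranded RNA, and no library of uninjected embryos was analysed here, so the response of these genes to the injection itself cannot be read from the comparison. There was 1 library per group, each a pool of embryos (the design text speaks of 50 morulae), so no difference has a replicate check and each value describes these libraries.

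In the nucleus, Drosha and its RNA-binding partner Dgcr8 cut microRNA hairpins out of long primary transcripts, and Xpo5 carries the hairpins to the cytoplasm. There Dicer1, helped by the double-stranded RNA-binding proteins Tarbp2 and Prkra, cuts hairpins into microRNAs and long double-stranded RNA into small interfering RNAs. The 4 Argonaute proteins hold these small RNAs and find their targets, and Ago2 is the member best known for cutting a fully matched target. Double-stranded RNA injected into mouse oocytes or early embryos is commonly used to deplete a chosen mRNA by this route.

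The libraries held 28303119 estimated reads in dsNat10 and 29139232 in dsGFP. The injected target, Nat10, had 37 and 886 reads in dsNat10 and dsGFP, which left 4.22% of the control level (95% counting interval 2.95% to 5.86%). Of 11 morula markers, 10 were in the table and all 10 had reads in both libraries. By the size rule given below, 4 of them were lower in dsNat10 and 0 higher, with a median log2 ratio of -0.79. Those 4 were Nanog (fractional counts), Cdx2, Tead4 and Krt8. That is 40% called, against 30.5% of all genes passing the filter, of which 15.3% were called lower. The markers above equality were 3: Gata3 at 1.33-fold, Tfap2c at 1.27-fold and Dppa5a (fractional counts) at 1.07-fold. Gata3 and Tfap2c were named after their values were seen. Oocyte markers summed to 44.9 TPM (transcripts per 1000000, a level per transcript length) in dsNat10 and 6.52 TPM in dsGFP over the 3 of 7 in the table. Zp3 had 642 and 106 reads, H1f8 286 and 0, and Gdf9, in the opposite direction, 1 and 54, with Bmp15, Zp1, Zp2 and Nlrp5 not among the table's genes. Cumulus cell markers, 3 of 7 in the table, summed to 23.9 and 27.3 TPM, nearly all from Amhr2 (831 and 976 reads). Star had 0 and 29 reads, and Inhba 0 and 2. Blood or fibroblast markers, 5 of 7 in the table, summed to 75.2 and 82.6 TPM and differed in direction. Pecam1 had 1879 and 1036 reads, Cd68 673 and 880, and Hba-a1 82 and 192 with fractional counts. Hbb-bt (0 and 0.5) and Col1a1 (0 and 9) had few reads in both libraries. The part of such differences in the results below was not tested. In pooled embryos, fewer cells of a type and less RNA per cell cannot be told apart.

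The machinery was present at very unequal levels, with Tarbp2 highest and Dicer1 and most Argonautes low. In dsNat10, Tarbp2 stood at 104 TPM, followed by Ago2 (24.9), Xpo5 (24.7), Drosha (21.6), Dgcr8 (5.95), Ago4 (3.09), Dicer1 (1.86) and Ago1 (0.64), with Ago3 and Prkra at 0. In dsGFP, Tarbp2 stood at 132 TPM, followed by Xpo5 (22.5), Ago2 (18.8), Dgcr8 (17.7), Drosha (14.5), Prkra (5.42), Dicer1 (2.64), Ago4 (2.51), Ago1 (1.80) and Ago3 (0.98). The counting intervals of Ago2 and Xpo5 overlap in dsNat10. In dsGFP those of Ago2 and Dgcr8 overlap, as do those of Dicer1 and Ago4, and other neighbours in the order with reads do not overlap. Tarbp2 lay at percentile 86.9 of all genes by TPM in dsNat10 and 89.1 in dsGFP, and Dicer1 at percentiles 34.04 and 32.7. The median gene of the table had 8.21 and 7.58 TPM in those libraries.

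**Figure D1:**
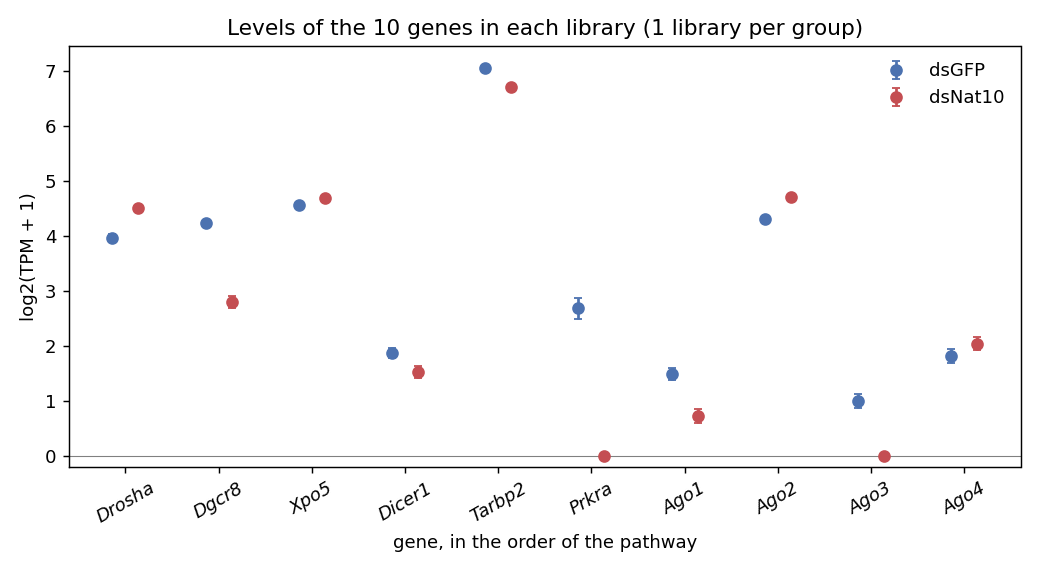
Level of each of the 10 genes, as log2 of TPM plus 1, in the dsGFP library (blue) and the dsNat10 library (red), in the order of the pathway. Bars are exact 95% counting intervals, with 1 library per group and none drawn at 0. Dgcr8, Dicer1, Tarbp2, Prkra, Ago1 and Ago3 sit lower in dsNat10, where Ago3 and Prkra are at 0. Tarbp2 is the highest gene in both libraries.

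A gene was called higher or lower when its mean was 5 or more reads per 1000000 (CPM), its log2 ratio of CPM plus 1 was at least 1 in size, and the counting interval of its ratio excluded equality. By this size rule, 2 of the 8 members that reached that mean were lower in dsNat10, Dgcr8 and Ago1, and 0 were higher. Over all 8738 genes that passed the filter on the mean, 15.3% were called lower and 15.2% higher. In either direction, 25.0% of the members and 30.5% of all genes were called, so the members' count is near the background. The median log2 ratio of the 8 members was -0.14, against 0.01 over all passing genes. Ago3 and Prkra did not pass the filter, and over all 10 members the median was -0.45, against -0.14 over all 12836 genes.

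**Figure D2:**
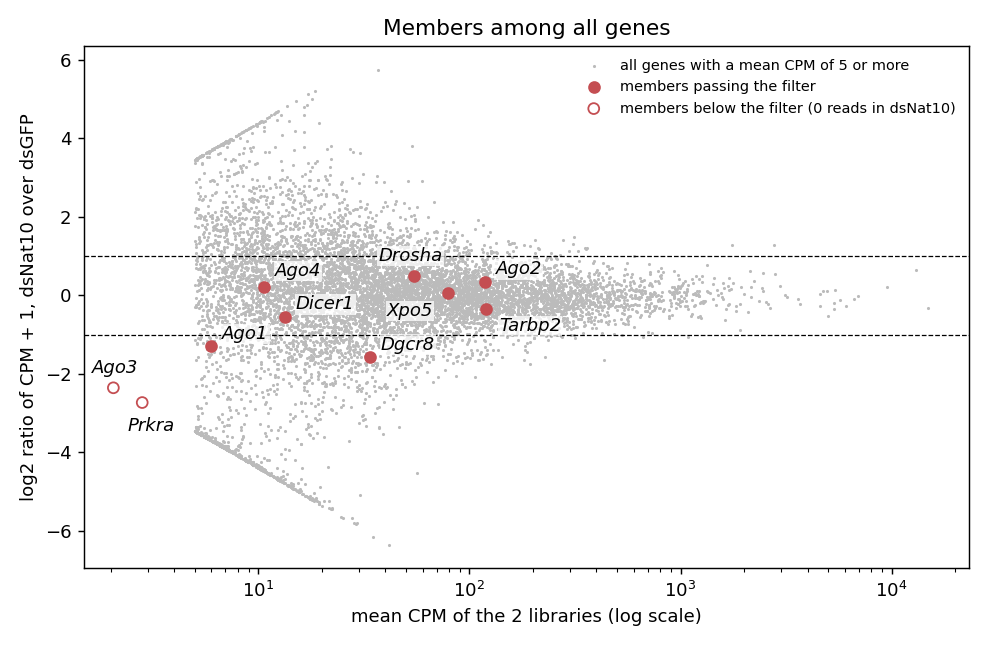
Log2 ratio of CPM plus 1 (dsNat10 over dsGFP) against mean CPM on a log scale for the 8738 passing genes (grey) and the 10 members (red, open where below the filter). Dashed lines mark a ratio of 1 in size on the log2 scale, and Dgcr8 at -1.57 and Ago1 at -1.30 are the passing members beyond them, within the spread of grey points of like abundance.

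The nuclear cleavage pair differed in opposite directions. Dgcr8 (Entrez gene 94223, GRCm38 chromosome 16, 18253948 to 18289251), the RNA-binding subunit, had 474 reads in dsNat10 against 1475, which is 3.08-fold lower (2.78 to 3.42). Drosha (Entrez gene 14000, chromosome 15, 12824804 to 12935291), the nuclease, had 1844 reads and 1306, or 1.43-fold more (1.33 to 1.53), a log2 ratio of 0.50 that does not meet the size rule. Both genes have fractional estimated counts and are uncertain for that reason. The end of Dgcr8 also overlaps Trmt2a on the opposite strand by 825 bases, and the library kit does not mark strand. Trmt2a had 4855 reads in dsNat10 and 3944 in dsGFP. Among genes averaging 20 to 50 CPM, the range of Dgcr8, 15.4% of genes were called lower.

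Set against each other within a library, which removes the scaling between libraries, Drosha had 3.63 times the TPM of Dgcr8 in dsNat10 and 0.82 times in dsGFP. The change of that ratio, taken from the reads, was 4.39-fold (3.87 to 4.99, counting error only). The summed TPM of the pair was 27.5 in dsNat10 and 32.2 in dsGFP.

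Dgcr8 is itself known as a substrate of this pair, since its mRNA folds into hairpins that Drosha and Dgcr8 cut. The annotated hairpin Mir1306 lies within exon 2 of Dgcr8 and inside the coding sequence, on the minus strand at chr16:18284239-18284317 (GRCm38.p6, sequence from RefSeq). It is shown because Dgcr8 is both a subunit of the enzyme and a transcript it is known to cut. Capitals mark the 5' and 3' mature arms.
Mir1306 hairpin: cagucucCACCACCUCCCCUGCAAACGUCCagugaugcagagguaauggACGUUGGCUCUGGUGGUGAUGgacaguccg
Cutting at this hairpin was not measured, as gene counts do not separate cut from whole transcripts.

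The export receptor Xpo5 (Entrez gene 72322, chromosome 17, 46202811 to 46243598) was the member with the most even reads. It had 2326 and 2235 reads, a ratio of 1.05 whose interval (0.992 to 1.11) includes equality. Of the other 7 passing members, all had a counting interval that excludes equality, as did 89.3% of all passing genes, so at this depth an interval free of equality is common. Of 7 genes of the Ran cycle and nuclear export, which load and unload such receptors, all 7 passed the filter and 0 were called. Over all passing genes 30.5% were called, and the median log2 ratio of the 7 was -0.02. Ranbp1, the most abundant, had 14417 and 14744 reads. The levels of the 7 ranged from 69.5% of control for Rcc1, the exchange factor of Ran, to 124% for Ranbp3, both named after their values were seen.

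Dicer1 (Entrez gene 192119, chromosome 12, 104687740 to 104751968), the nuclease that cuts long double-stranded RNA, had 306 reads in dsNat10 against 464 in the control. That is 66.6% of the control level (57.5% to 77.1%), with a log2 ratio of -0.54, which does not meet the size rule. Relative to the summed reads of the 4 Argonautes, Dicer1 was 1.74-fold lower in dsNat10 (1.49 to 2.03). Gene counts do not separate the oocyte form of Dicer1, which starts at an internal promoter, from the full-length form.

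Its 2 partner proteins differed from each other. Tarbp2 (Entrez gene 21357, chromosome 15, 102516077 to 102523676), which steadies Dicer1 on its substrate, had 3023 reads in dsNat10 against 3900, or 78.3% of the control level (74.7% to 82.1%). Prkra (Entrez gene 23992, chromosome 2, 76609215 to 76648220), which shares the partner role and is also known as an activator of the kinase PKR, had 0 reads in dsNat10 against 163. At a floor of 3 reads in the empty library, 0.105 CPM, Prkra was 53.8-fold lower. Its counting interval reaches down to 43.2-fold. Zeros of this kind were common among low genes: where dsGFP had from 100 to just under 200 reads, 36.7% of genes had none in dsNat10, and in the opposite direction the share was 8.41%. The interval of Prkra covers counting error only and does not cover such zeros.

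Among the Argonautes, Ago2 was the main transcript in both libraries and its share was larger in dsNat10. Ago2 (Entrez gene 239528, chromosome 15, 73101625 to 73184947) had 3787 reads in dsNat10 against 3000, 1.28-fold more (1.22 to 1.34). It overlaps Chrac1 on the opposite strand, which had 1191 and 1305 reads. Ago4 (Entrez gene 76850, chromosome 4, 126489487 to 126533586) had 329 and 282 reads, a ratio of 1.18 (1.002 to 1.39).

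The other Argonautes were lower. Ago1 (Entrez gene 236511, chromosome 4, 126435012 to 126468707) had 87 reads in dsNat10 against 258, 2.94-fold lower (2.29 to 3.79). It met the size rule with a mean of 5.99 CPM, in a range (5 to 20 CPM) where 27.8% of genes were called lower. That call was lost in TPM, where the log2 ratio was -0.77, in FPKM (a level per length, like TPM, at -0.65) and with a pseudocount of 5 CPM (-0.79). Ago3 (Entrez gene 214150, chromosome 4, 126326994 to 126431670) had 0 reads in dsNat10 against 119, 39.3-fold lower at the floor. Its counting interval reaches down to 31.4-fold, and it falls in the same read range of common zeros as Prkra.

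Ago2 made up 87.0% of the summed Argonaute TPM in dsNat10 and 78.0% in dsGFP. Ago4 held 10.8% and 10.4%, Ago1 2.23% and 7.48%, and Ago3 0% and 4.07%. The summed Argonaute level was 28.7 TPM in dsNat10 and 24.1 TPM in dsGFP. The change of the reads of Ago2 relative to those of Ago1 was 3.74-fold (2.91 to 4.85), and of Ago4 relative to Ago1 3.46-fold (2.56 to 4.68).

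**Figure D3:**
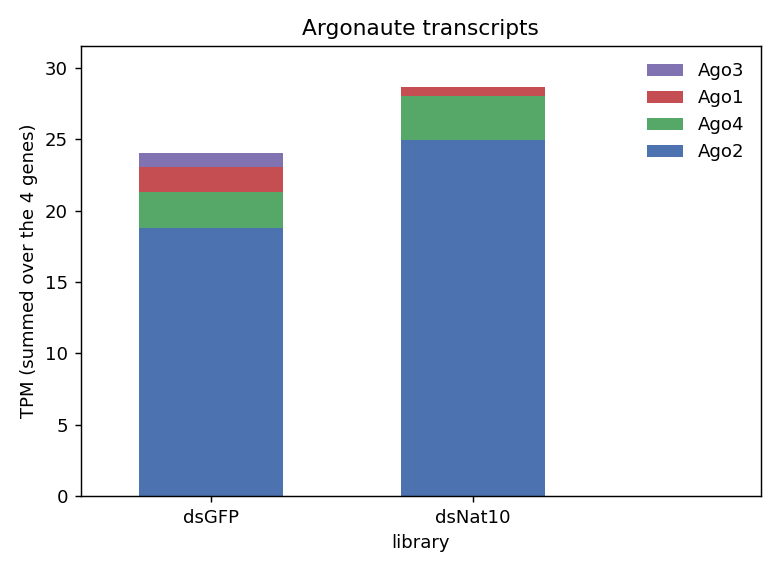
Summed TPM of the 4 Argonaute genes in the dsGFP and dsNat10 libraries, stacked by gene, 1 library per bar. Ago2 fills 78.0% of the dsGFP bar and 87.0% of the dsNat10 bar, and Ago3 is at 0 in dsNat10.

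Ago3, Ago1 and Ago4 lie next to each other on the minus strand of chromosome 4, within 207 kb, with 3.34 kb between Ago3 and Ago1 and 20.8 kb between Ago1 and Ago4. Neighbours of this cluster thus differed in direction, with Ago4 at 1.18 times its control level and Ago1 at 34.1%. The 250 bases before an annotated start of each gene (RefSeq, GRCm38.p6) are shown because the 3 neighbouring genes have separate starts. These starts lie inside the gene spans given above, which reach further upstream and from which the distances were taken. The Ago3 window lies wholly within its gene span, and those of Ago4 and Ago1 overlap theirs in part. Capitals mark the GC box, GGGCGG on either strand, whose matches may overlap each other.
Ago4, chr4:126533459-126533708, minus strand: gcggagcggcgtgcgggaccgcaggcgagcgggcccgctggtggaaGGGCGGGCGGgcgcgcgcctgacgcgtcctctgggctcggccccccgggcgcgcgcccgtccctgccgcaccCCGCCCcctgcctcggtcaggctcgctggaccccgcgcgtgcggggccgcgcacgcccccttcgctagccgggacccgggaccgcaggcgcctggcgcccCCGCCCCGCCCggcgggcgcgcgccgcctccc
Ago1, chr4:126468632-126468881, minus strand: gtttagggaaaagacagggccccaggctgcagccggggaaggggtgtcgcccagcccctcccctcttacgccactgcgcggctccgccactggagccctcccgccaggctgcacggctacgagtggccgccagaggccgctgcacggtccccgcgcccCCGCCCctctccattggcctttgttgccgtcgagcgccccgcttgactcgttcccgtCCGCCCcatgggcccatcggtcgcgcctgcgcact
Ago3, chr4:126429543-126429792, minus strand: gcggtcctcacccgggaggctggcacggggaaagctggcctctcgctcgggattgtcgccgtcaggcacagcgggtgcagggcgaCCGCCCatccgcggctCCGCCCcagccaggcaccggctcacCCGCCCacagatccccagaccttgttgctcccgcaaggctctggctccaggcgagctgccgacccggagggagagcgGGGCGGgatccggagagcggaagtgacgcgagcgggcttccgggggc
The windows hold 5, 2 and 4 GC boxes in that order, and 32.7% of 32851 windows of the same length before annotated starts hold at least 1. Their CpG dinucleotides number 46, 26 and 27, against a median of 6. The CCAAT box, CCAAT on either strand, occurs in the window of Ago1 and is found in 33.8% of all windows, and TATAAA on either strand is in none of the 3 windows and in 12.4% of all. The table gives 2 starts for Ago1, of which the first listed was used, and these matches are a description of the letters only.

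Proteins that act with the machinery were taken from lists of the pathway. Of 15 partners of nuclear cleavage, all 15 passed the filter, 1 was higher and 1 lower (median log2 ratio -0.09). That is 13.3% called, against 30.5% of all passing genes. Srrt, which links capped transcripts to Drosha, had 1296 reads in dsNat10 against 2814, 2.15-fold lower (2.01 to 2.30). Dhx9, an RNA helicase, had 654 and 231, 2.86-fold higher (2.46 to 3.34). Hnrnpa1, the most abundant of them, had 51991 and 44572. Of 12 genes for the loading of Argonautes, 11 passed and 1 was called (9.09%). That was the chaperone Hspa4, with 6660 reads and 2867 (2.35-fold higher). Hspa8, the most abundant, had 377925 and 473829, and the median of that list was -0.18.

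Effectors that silence the bound mRNA differed in both directions. Of 33, 29 passed, with 7 higher and 4 lower (37.9% called, against 30.5% of all genes), and a median of -0.06. Where only effectors averaging 20 CPM or more are kept, 1 was higher and 4 lower, and the median was -0.29. The share over all genes at that filter was not computed. Among the effectors are the scaffold proteins of the GW182 family, which tie Argonautes to the deadenylases. Tnrc6a had 728 reads in dsNat10 against 92, 7.99-fold higher (6.43 to 10.04), and Tnrc6c had 698 and 39, 18.1-fold higher (13.1 to 25.6). They averaged 14.3 and 12.9 CPM, so both fall out where a mean of 20 CPM is required. Tnrc6b, named after its values were seen, had 0 and 204 and a mean under the filter. Where dsGFP had from 200 to just under 300 reads, 22.1% of genes had none in dsNat10.

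The decapping gene Dcp1a had 1 read in dsNat10 against 1244, lower by a counting interval of 221-fold to 48672-fold. Its dsNat10 level, 0.035 CPM, lies under the floor of 0.105 CPM, so the size of the fold is not known. That interval covers counting error only. The share of genes with so few dsNat10 reads at this dsGFP level was not computed. Pabpc1, the poly(A)-binding protein and most abundant of the list, had 20398 and 11681 reads, a log2 ratio of 0.82. The other called genes, all named after their values were seen, went both ways. Cnot11, Ddx6, Lsm14a and Lsm14b were between 2.28-fold and 5.63-fold higher, and Xrn1 was higher with fractional counts. Cnot10 and Edc4 were 2.11-fold and 2.39-fold lower, and Cnot3 was lower with fractional counts.

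Of 12 genes for the turnover and tailing of small RNAs, 10 passed, with 2 higher and 1 lower (median 0.11). That is 30% called, near the 30.5% of all passing genes. Below the filter, and named after their values were seen, Tut4 had 3 reads in dsNat10 against 259, and Dis3l2 0 against 34. Zswim8, the ubiquitin ligase adaptor that removes Argonautes engaged with certain targets, had 463 reads and 141, 3.32-fold higher (2.74 to 4.03). Tent2, a polymerase that extends RNA ends with adenosines, had 2347 and 1154, 2.05-fold higher (1.91 to 2.21), and in FPKM and with a pseudocount of 5 CPM it misses the size rule (log2 ratio 0.95 in both). Trim71, an RNA-binding protein and target of let-7, had 0 reads and 506, 167-fold lower at the floor of 3 reads. Its counting interval reaches down to 135-fold. That interval covers counting error only, and the share of genes at 0 for this many dsGFP reads was not computed. Lin28a, which blocks the maturation of let-7 and is the most abundant of the list, had 4719 and 4385 reads.

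**Figure D4:**
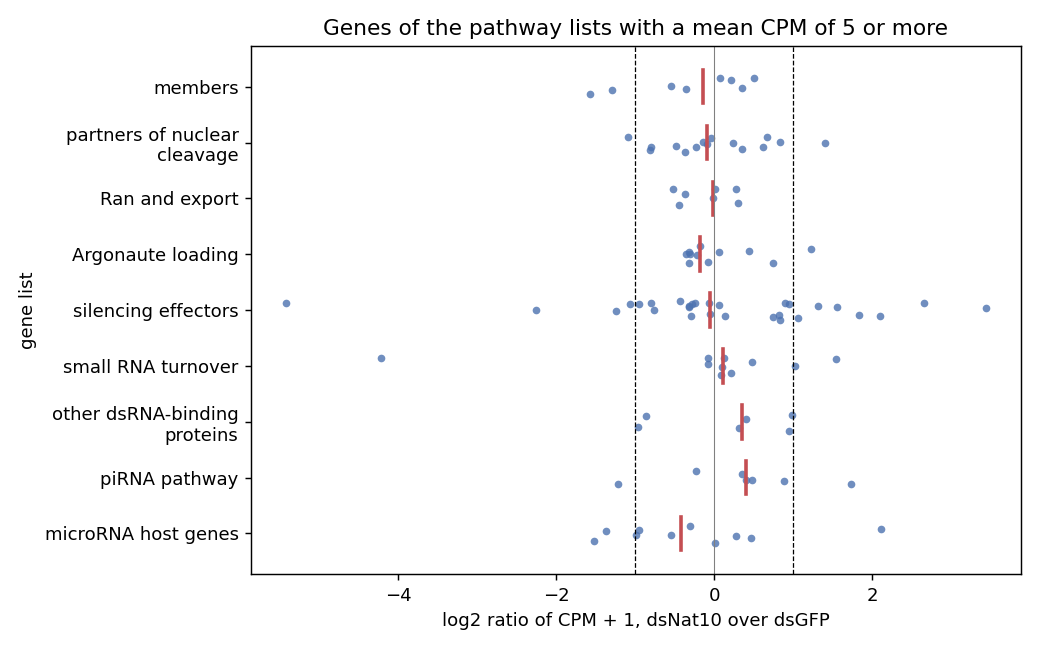
Log2 ratio of CPM plus 1 (dsNat10 over dsGFP) of every gene averaging at least 5 CPM in the members and the 8 pathway lists. Points are genes, red bars are list medians and dashed lines mark a ratio of 1 in size on the log2 scale. List medians lie between -0.42 and 0.41, and the widest spread is among the silencing effectors.

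Genes that carry microRNA hairpins in their transcripts were measured as host mRNAs, and mature microRNAs were not. Of 20 hosts, 14 were in the table and 10 passed the filter, with 1 higher and 2 lower (30% called, against 30.5% of all passing genes). Their median log2 ratio was -0.42, or 0.01 where only hosts averaging 20 CPM are kept. The hosts below are shown with the microRNAs whose hairpins lie inside them (GRCm38.p6, sequences from RefSeq). The Ctdsp and Pank hosts are shown because hosts of microRNAs that share a seed can be compared. Mest and Copz1 share no seed with another host shown and were taken by the rule for names. Capitals mark the seed, bases 2 to 8.
mmu-miR-26b-5p, in Ctdsp1: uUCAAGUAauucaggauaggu
mmu-miR-26a-5p, in Ctdsp2 and Ctdspl: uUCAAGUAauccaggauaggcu
mmu-miR-107-3p, in Pank1: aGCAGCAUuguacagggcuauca
mmu-miR-103-3p, in Pank2 and Pank3: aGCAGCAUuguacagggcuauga
mmu-miR-335-5p, in Mest: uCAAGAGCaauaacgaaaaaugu
mmu-miR-148b-3p, in Copz1: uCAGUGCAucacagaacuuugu
The 3 hosts of the miR-26 seed, which encode related phosphatases, all had fewer reads in dsNat10. Ctdsp1 had 95 reads and 330, 3.44-fold lower (2.73 to 4.37), and Ctdsp2 had 215 and 606, 2.79-fold lower (2.38 to 3.27). Both lie in the range of 5 to 20 CPM where 27.8% of genes were called lower, and with a pseudocount of 5 CPM the call of Ctdsp1 was lost (log2 ratio -0.98). Ctdspl, named with its family after its values were seen, had 0 and 39 and was below the filter. Zeros were common in dsNat10 (2657 genes, against 458 in dsGFP), and their share at so few dsGFP reads was not computed.

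The hosts of the miR-103 and miR-107 seed, the pantothenate kinases, went different ways and were also named after their values were seen. Pank1 had 0 and 90 reads, Pank2 had 87.3 and 0 with fractional counts, and Pank3 had 2387 and 1981. Mest, an imprinted gene, had 1262 and 273, 4.67-fold higher (4.09 to 5.34), with fractional counts. Copz1, a coat protein of transport vesicles and the most abundant host, had 5052 and 10170, a log2 ratio of -0.99, just inside the limit. With DESeq2 size factors, another scaling, its log2 ratio was -1.01 and it was called lower.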

How the data were processed

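RNA was measured in 2 libraries of morulae, 1 per group. SMART-seq2 libraries, which amplify cDNA by PCR, were made from polyA RNA, per the labels. The submitters' processing notes name Trim Galore for trimming, HISAT for mapping to GRCm38 and HTSeq for counting, without versions. The authors deposited estimated counts, of which 23.2% of genes have a fractional value, FPKM values, which divide by length and library total, and TPM values, which sum to 1000000 per library. HTSeq usually gives whole counts, and the source of the fractional ones is not known.

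Estimated counts were rounded and expressed as CPM with TMM scaling (edgeR 4.0.16, R 4.3.3), which moved log2 ratios by -0.03 against plain totals. Log2 ratios use CPM plus 1. Folds and intervals are plain CPM ratios with exact (Clopper-Pearson) 95% intervals, and ratios of genes within libraries use the exact conditional odds ratio (scipy 1.17.1). Intervals and the floor of 3 counts cover counting error only, since reads copied by PCR and lacking molecular identifiers are not separate molecules. With 1 library per group no p-value was computed. The size rule was also run on simulated counts that held counting error only. That setting cannot show how the rule behaves under PCR copying or differences between pools of embryos. Entrez identifiers of 12800 genes matched the RefSeq table of GRCm38.p6, and 9 of 10 members had a promoter entry. Overlaps and exons came from GENCODE M21.

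The members and lists were chosen with earlier results of these data known. The rule for names took all members and, from each list, the gene with the highest mean TPM and up to 3 called genes with the largest log2 ratio. The genes nearest in level to Dicer1 are not reported here. Alternatives were plain totals, DESeq2 1.42.0 size factors, TPM, FPKM, other pseudocounts, filters and size limits.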

Additional observations from a re-analysis of the deposited data

How the results depend on the processing

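Dgcr8 was called lower under every alternative run. The count of members called lower, 2 as reported, was 1 in TPM, in FPKM, with a pseudocount of 5 and among genes averaging 20 CPM (Dgcr8 alone, as Ago1 fell out), and 4 with no filter on the mean, which adds Ago3 and Prkra. No member was called higher under any alternative. The log2 ratio of each of the 10 members kept its sign under both other scalings, in TPM, in FPKM and with both other pseudocounts, with Dicer1 between -0.56 and -0.33, Drosha between 0.47 and 0.54, and Xpo5 between 0.06 and 0.13. Over the 8 pathway lists together, 13 genes were higher and 9 lower. Over all passing genes, 15.2% were higher and 15.3% lower. Among genes averaging 20 CPM, 4 were higher and 6 lower, and with no filter 15 were higher and 17 lower. The shares over all genes under these filters were not computed, so these counts are not read as a direction. Without a filter the whole table had 2657 genes at 0 in dsNat10 and 458 in dsGFP, with a median log2 ratio of -0.14. With a limit of 1.5-fold, 25 genes of the lists were higher and 18 lower. The share over all genes at that limit was not computed either, so these counts are not read as a direction. The members' median was 0.07 with a mean of 20 CPM or more. Leaving out a library was not possible with 1 per group. No paired analysis was possible because each group has 1 library. Depth limits the low members: 3 reads correspond to 0.105 CPM in dsNat10 and 0.104 CPM in dsGFP.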

Other observations

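Germline relatives of the machinery, the piRNA pathway, were also detected in these morulae. Of 11 genes, 8 were in the table and 7 passed the filter. By the size rule, 1 was higher and 1 lower (28.6% called, against 30.5% of all passing genes). The median log2 ratio was 0.41 (0.13 at a mean of 20 CPM or more). Piwil2, the Piwi-clade Argonaute of the list and its most abundant gene, had 3542 reads in dsNat10 and 4196 in dsGFP. Its level, 38.3 and 43.2 TPM, was above that of each of the 4 Argonautes of the microRNA pathway in both libraries. Mael, a protein of germline granules, had 347 reads and 850, 2.42-fold lower (2.14 to 2.75), and Tdrd9, a helicase of the pathway, had 849 and 237, 3.62-fold higher (3.13 to 4.20).

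Other proteins that bind double-stranded RNA had 8 of 11 genes in the table. Of these, 6 passed and 0 were called, against 30.5% of all passing genes (median log2 ratio 0.36, and -0.10 over all 8). Zfr, the most abundant, had 7861 reads and 4002, a log2 ratio of 0.98, and was called higher with plain totals (1.01) and in TPM (1.03). With a pseudocount of 0.5, 1 gene of the list was called lower, and with a limit of 1.5-fold 2 were higher and 2 lower. The shares over all genes under those settings were not computed, so these counts are not read as a result about the list.

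The length by which the authors divided each gene's reads can be recovered from the deposited reads and FPKM, and it differed between the libraries for Tarbp2. The implied length was 1505 bases in dsNat10 and 1450 in dsGFP, a difference of 3.79%, which the rounding of FPKM does not cover. Dicer1 differed by -1.10% (8513 and 8607 bases), and Xpo5, Drosha and Ago2 by 0.10%, -0.10% and 0.08%. Across 7668 genes with an FPKM of at least 1 in both libraries, 19.2% differed by more than 3%, so the value for Tarbp2 is not rare.

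The genes nearest to Drosha and Ago2 in level, by Euclidean distance over log2 CPM plus 1 in these 2 libraries, were Smpd2 and Fancm for Drosha and Rwdd1 and Gmeb1 (fractional counts) for Ago2, at distances from 0.01 to 0.04. Over only 2 libraries this describes similar counts.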
